A study of Mus musculus with 8 samples.

Results

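Peaks of 2 histone acetylation marks were examined at 9 lymphocyte genes in mouse small intestinal crypts, a preparation labelled as epithelial cells. The genes were Ptprc, Cd3e, Cd3g, Cd8a, Gzma, Gzmb, Itgae, Cd79a and Ccl5, out of 21887 protein-coding genes of the RefSeq table for GRCm38.p6. They were chosen by name, as genes of intraepithelial T cells, cytotoxic lymphocytes and B cells, and all 9 were found in the table. The question was whether signal at these loci differed by feeding, by tetracycline or between the lists of one sample. The window of a gene was its body plus 20 kb on each side, and window coverage is the percent of its bases covered by the merged peaks of a list.

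Intraepithelial lymphocytes are T cells that lie between the epithelial cells of the gut, and many of them in the small intestine carry the CD8 co-receptor, the integrin encoded by Itgae and cytotoxic granules. Because they sit inside the epithelium, they can come along when crypts are isolated. H3K27ac marks active promoters and enhancers and H3K9ac marks active promoters, so peaks at a gene that epithelial cells do not use can carry signal from other cells. In a bulk preparation, fewer cells of a type and less acetylation per cell cannot be told apart.

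The labels describe 9-week-old male C57BL/6J mice, either fed or fasted for 24 h, with or without 21 days of tetracycline. For each mark there were 4 groups, Fed and Fast without tetracycline (-Tetra) and Fed and Fast with tetracycline (+Tetra), and each group was 1 sample with 2 peak lists. No genetic modification is labelled, and no sort for epithelial cells is mentioned. Nothing states that lists 1 and 2 came from separate mice, so p-values measure the spread between lists, which may be technical. H3K27ac lists held 32392 to 68545 peaks and H3K9ac lists 17249 to 99050. Read depth was unknown, and the number and width of called peaks move with it.

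The promoters of Ptprc, Cd3e, Cd8a, Gzma and Gzmb are shown because each had an H3K27ac region of its own over the start site that was in both lists of at least 1 group and in neither Fed (+Tetra) list. Each line is the 250 bases before a RefSeq start site (GRCm38.p6), written 5′ to 3′ on the strand of the gene. Capitals mark GGAAG, the core letters of ETS family sites, and TGTGGT, letters of RUNX sites, each searched on both strands (CTTCC and ACCACA as the reverse), and no marked stretch overlaps another.
Ptprc, chr1:138175306-138175555, minus strand: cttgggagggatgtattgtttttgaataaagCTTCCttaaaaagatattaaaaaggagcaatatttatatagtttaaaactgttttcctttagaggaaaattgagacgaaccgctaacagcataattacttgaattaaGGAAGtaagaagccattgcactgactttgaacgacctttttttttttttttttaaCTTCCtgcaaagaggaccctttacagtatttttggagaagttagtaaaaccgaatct
Cd3e, chr9:45009612-45009861, minus strand: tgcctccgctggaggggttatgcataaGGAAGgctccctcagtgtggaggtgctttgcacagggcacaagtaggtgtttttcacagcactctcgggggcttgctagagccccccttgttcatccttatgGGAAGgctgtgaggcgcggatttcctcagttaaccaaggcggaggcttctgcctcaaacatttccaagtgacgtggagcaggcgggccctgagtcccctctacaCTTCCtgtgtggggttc
Cd8a, chr6:71373177-71373426, plus strand: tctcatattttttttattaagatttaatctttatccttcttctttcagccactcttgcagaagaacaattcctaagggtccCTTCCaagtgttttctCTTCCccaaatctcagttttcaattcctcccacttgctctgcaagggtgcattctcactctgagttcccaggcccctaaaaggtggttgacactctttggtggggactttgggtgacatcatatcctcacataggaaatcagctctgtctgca
Gzma, chr13:113100982-113101231, minus strand: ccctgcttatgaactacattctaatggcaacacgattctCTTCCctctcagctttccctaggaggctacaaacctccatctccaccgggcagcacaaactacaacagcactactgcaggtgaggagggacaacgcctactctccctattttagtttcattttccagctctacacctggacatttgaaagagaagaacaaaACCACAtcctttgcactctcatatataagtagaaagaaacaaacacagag
Gzmb, chr14:56262335-56262584, minus strand: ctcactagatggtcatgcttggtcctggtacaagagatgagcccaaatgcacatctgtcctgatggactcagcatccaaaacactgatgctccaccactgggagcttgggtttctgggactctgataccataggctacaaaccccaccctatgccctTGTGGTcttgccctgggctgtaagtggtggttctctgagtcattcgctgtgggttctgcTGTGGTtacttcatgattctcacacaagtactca
The Ptprc window held 3 ETS matches, the Cd3e window 3, the Cd8a window 2 and the Gzma window 1. RUNX matches numbered 1 before Gzma and 2 before Gzmb. Of 21263 RefSeq promoter windows of the same length, 65.1% held an ETS match and 12.4% a RUNX match. The matches are letters in a window and were not tested as binding sites.

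Ptprc encodes CD45, the phosphatase on the surface of nearly all leukocytes. Its gene spans chr1:138062859-138175756, and no other protein-coding gene lies in its window. A merged H3K27ac region at the start site, chr1:138174645-138175619, was found in all 4 Fast lists and in none of the 4 Fed lists. Among 17492 genes with a listed start site, 12 had a peak within 1 kb of it in all Fast and no Fed H3K27ac lists, which is 0.0686%. The peaks were weak: the highest reached the 31.0th percentile of scores in its list. A stronger region 16.8 kb upstream of the start, chr1:138191411-138192764, was in 7 of 8 H3K27ac lists and reached the 87.9th percentile. It was missing from Fed (+Tetra) list 1.

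Cd8a, which encodes a chain of the co-receptor of cytotoxic T cells, lies at chr6:71373427-71379171. Its start region, chr6:71373008-71373969, was in 5 H3K27ac lists: both of Fed (-Tetra), list 2 of Fast (-Tetra) and both of Fast (+Tetra). Neither Fed (+Tetra) list held it. A region 3.82 kb upstream, chr6:71369077-71370135, was in every H3K27ac list except the same 2 Fed (+Tetra) lists.

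Gzma and Gzmb encode granzymes, the proteases that cytotoxic lymphocytes release into target cells. Gzma, at chr13:113093824-113100981, lies inside the gene Cdc20b. A region at an end of Cdc20b, chr13:113119842-113121293, was in 4 H3K27ac lists, reached the 86.6th percentile of scores, and was the only peak of Fed (+Tetra) list 2 in the Gzma window. The Gzma start region, 17706 bp from an end of Cdc20b, at chr13:113099992-113103313, was in 5 H3K27ac lists, again both of Fed (-Tetra) and both of Fast (+Tetra), with list 1 of Fast (-Tetra). The Gzmb start region, chr14:56261349-56262793, was in both lists of Fed (-Tetra) and of Fast (-Tetra) and in list 2 of Fast (+Tetra). Fed (+Tetra) lists held neither start region, and no H3K27ac peak of either list lay anywhere in the Gzmb window.

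**Figure D1:**
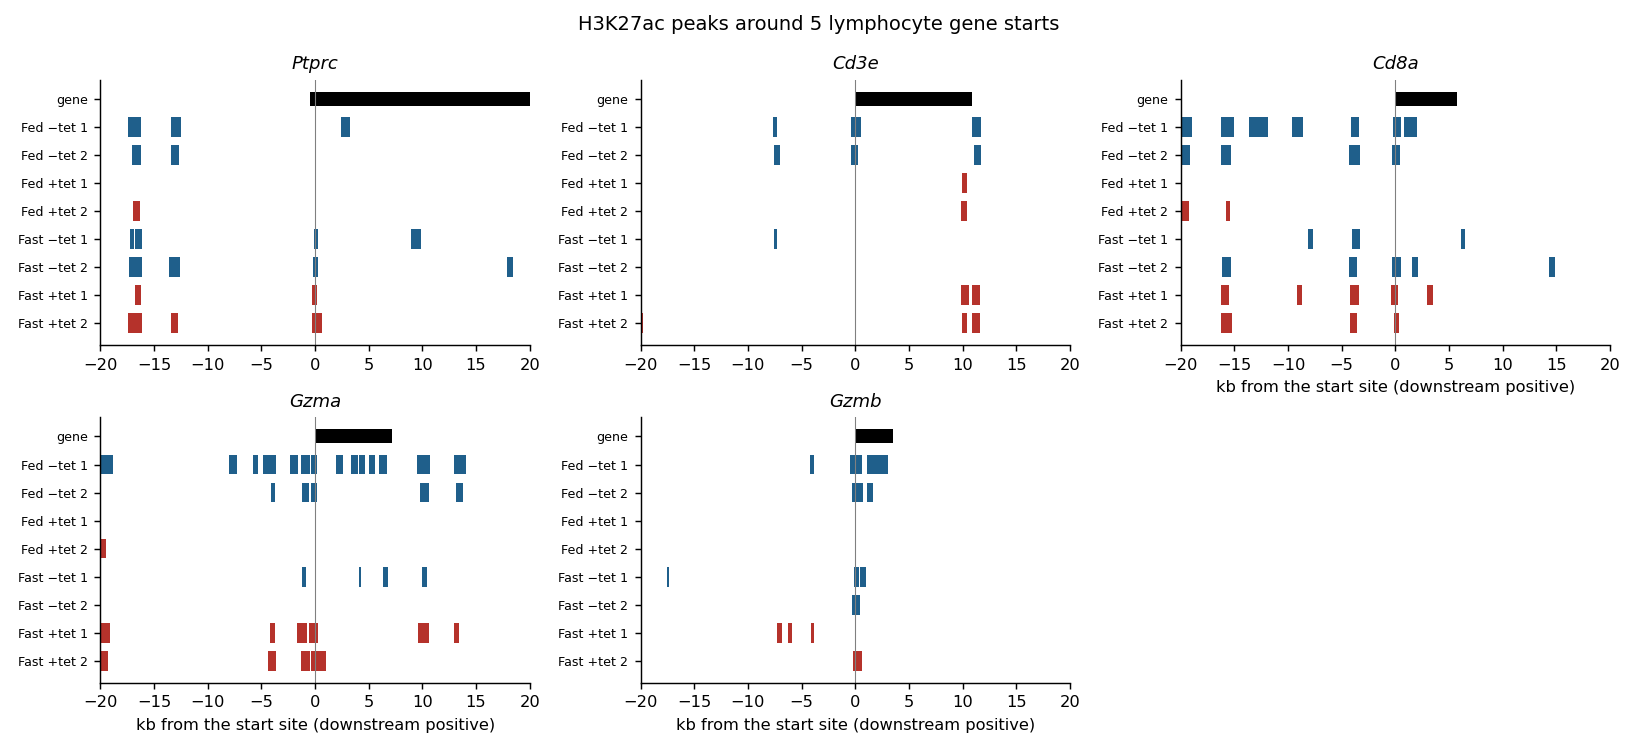
H3K27ac peaks (coloured bars) of each of the 8 lists around the start sites of Ptprc, Cd3e, Cd8a, Gzma and Gzmb, in kb from the start along the direction of transcription, with lists without tetracycline in blue and with tetracycline in red, and the gene body in black. The Ptprc start carries a peak in all 4 Fast lists and in no Fed list, the Cd3e start in both Fed lists without tetracycline alone, and the Cd8a, Gzma and Gzmb starts carry none in either Fed list with tetracycline.

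Peaks of the other members were partly peaks of their neighbours. Cd3e and Cd3g encode invariant chains of the T cell receptor complex, and with Cd3d they form a cluster on chromosome 9 in which the start sites of Cd3g and Cd3d are 1355 bp apart. Cd3e (chr9:44998735-45009663) and Cd3g (chr9:44969572-44980431) therefore share regions, among them chr9:44984474-44987465 at an end of Cd3d, found in 6 H3K27ac lists. The region at Cd3g found in all 8 lists of both marks lay at an end of Ube4a, a ubiquitin ligase gene. A region at the 3′ end of Cd3e, chr9:44997855-44998773, belonged to no neighbour and was in both lists of Fed (-Tetra) and both of Fast (+Tetra). Next to it, chr9:44999024-44999750 was in all 4 lists with tetracycline and in none without. The start region of Cd3e, chr9:45009095-45010021, was in both Fed (-Tetra) lists and in none of the other 6. Across the 9 windows, 7 distinct H3K27ac regions were in both or in neither list of every group without being in all 8. Of these, 6 were in neither Fed (+Tetra) list, the exception being the Cd3e region found with tetracycline. The share of all H3K27ac regions that do so is not given here. Fed (+Tetra) list 1 was the shortest H3K27ac list, and its window coverage was the lowest or tied for 59.3% of all genes.

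Itgae encodes integrin alpha E, which holds lymphocytes in the epithelium by binding E-cadherin. Its most shared region, in 7 lists of each mark, lay at Haspin, a kinase gene nested in Itgae (chr11:73090505-73147449), and its own most shared region, chr11:73131940-73132792, was in 5 H3K27ac lists. Cd79a encodes a signalling chain of the B cell receptor and lies at chr7:24897497-24901858. Its window was covered in all 8 H3K27ac lists by regions at Rps19 and Arhgef1, and the only list with an H3K27ac peak of Cd79a itself was list 1 of Fast (-Tetra). Ccl5, a chemokine gene of activated T cells at chr11:83525778-83530518, had its most shared region outside the gene body, chr11:83533973-83535764, in 7 H3K27ac lists, all except Fed (+Tetra) list 1.

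A peak was counted as a member's own when it overlapped the gene body or lay within 1 kb of it, and lay more than 1 kb from the ends of all other protein-coding genes. Own H3K27ac peaks were found for 8 and 6 of the 9 members in Fed (-Tetra) lists 1 and 2, and for 7 and 5 in Fast (-Tetra). They were found for 1 and 4 in Fed (+Tetra) and for 5 and 6 in Fast (+Tetra). Over the 8 lists, 42.6% to 57.7% of all protein-coding genes had an own peak. The members' share was below that of all genes in both Fed (+Tetra) lists (11.1% against 42.8%, and 44.4% against 47.6%) and above it in the other 6 lists. The lists with the fewest and the most members marked, Fed (+Tetra) list 1 and Fed (-Tetra) list 1, were also the shortest of the mark, with 32392 and 36340 peaks. Of 7 members with a listed start site, 5 and 5 had a peak within 1 kb of it in Fed (-Tetra), 4 and 4 in Fast (-Tetra), 0 and 1 in Fed (+Tetra) and 4 and 5 in Fast (+Tetra), where 43.2% to 51.1% of all genes with a listed start did. The 1 start in Fed (+Tetra) was that of Cd3g, next to Cd3d.

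Own peaks had low scores. Of 80 own H3K27ac peaks over the 8 lists, 63 (78.8%) scored below the median of their list, and of 69 own H3K9ac peaks 51 did (73.9%). The members' windows held 77 distinct merged H3K27ac regions, of which 37 (48.1%) appeared in 1 list, 14 in 5 or more and 3 in all 8. H3K9ac gave 115 regions, of which 92 (80.0%) appeared in 1 list and 4 in 5 or more. Own H3K9ac peaks were found for 5 and 5 members in Fed (-Tetra), 5 and 3 in Fast (-Tetra), 2 and 6 in Fed (+Tetra) and 6 and 4 in Fast (+Tetra). Between 38.7% and 66.6% of all genes had one, and the members' share was below that of all genes in 5 of the 8 lists.

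Epithelial genes served as the check of the labelled cell type. Of 14 epithelial genes, among them Krt8 and Krt19 (keratins) and Cdx2 (an intestinal transcription factor), 12 to 14 had an own H3K27ac peak in each list. Mean coverage of the Krt8 window was 47.6% in Fed (-Tetra), 49.6% in Fast (-Tetra), 47.7% in Fed (+Tetra) and 47.6% in Fast (+Tetra) H3K27ac lists, and that of Krt19 was 35.2%, 56.5%, 49.0% and 54.6%. Mean H3K27ac coverage was higher in Fast than in Fed lists for 13 of the 14 epithelial genes, with a median difference of 3.93 percentage points, and 0 of them were without overlap. Of 13 genes shared by all leukocytes, 3 to 12 had an own peak, of 15 cytotoxic genes 0 to 7, and of 15 B and plasma cell genes 2 to 7. Stroma and vessel genes had 2 to 6 of 12, and a list named muscle and nerve, which also held the albumin gene Alb, 0 to 5 of 10.

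**Figure D2:**
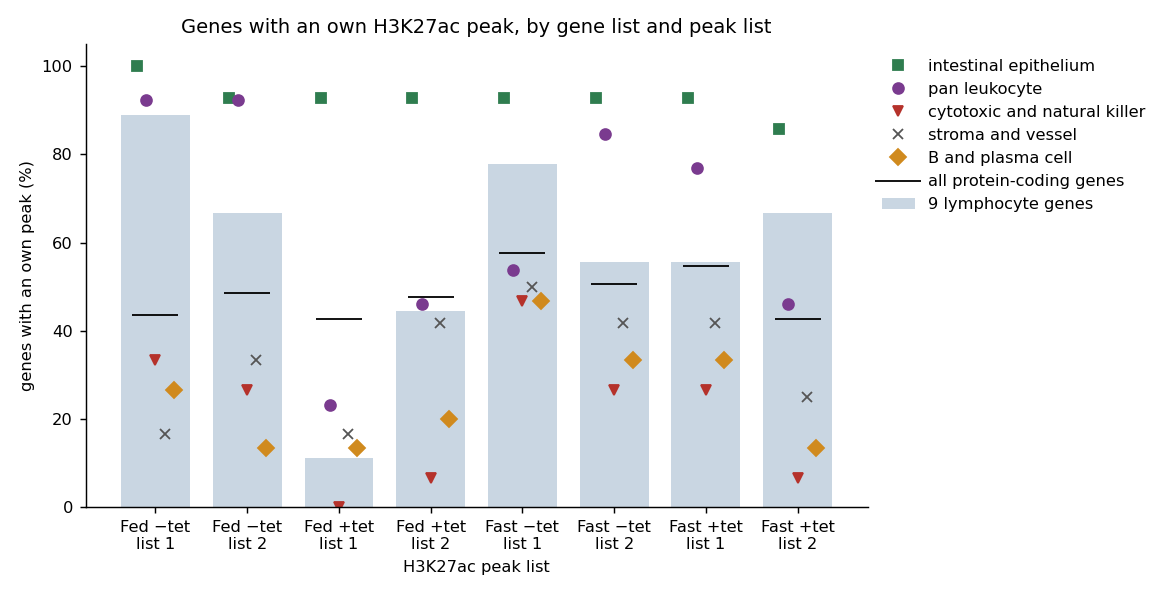
Percent of genes with an own H3K27ac peak in each of the 8 lists, for the 9 lymphocyte genes (bars), 5 lists of other genes (symbols, set side by side) and all protein-coding genes (dashes). The bar of Fed with tetracycline list 1 stands at 1 of 9 genes while 13 of 14 epithelial genes had an own peak there.

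Window coverage gives the same comparison by extent. H3K27ac coverage of Gzma was 23.5% and 6.52% in Fed (-Tetra) lists 1 and 2, 3.11% and 0% in Fast (-Tetra), 0% and 1.10% in Fed (+Tetra), and 9.56% and 7.66% in Fast (+Tetra). For Gzmb the values were 7.78% and 3.48%, 2.76% and 1.89%, 0% and 0%, and 2.61% and 1.96%, in the same order of groups. For Cd8a they were 17.0% and 7.44%, 4.20% and 7.62%, 0% and 2.26%, and 6.86% and 4.79%. For these 3 genes, both Fed (+Tetra) lists lay below both lists of Fed (-Tetra) and of Fast (+Tetra), and Fed (-Tetra) list 1 was the highest of the 8.

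H3K27ac coverage of Cd3e was 11.3% and 8.03% in Fed (-Tetra), 0.640% and 7.42% in Fast (-Tetra), 0.939% and 3.71% in Fed (+Tetra), and 6.93% and 6.60% in Fast (+Tetra). For Cd3g it was 12.5% and 8.66%, 5.83% and 10.6%, 3.77% and 7.77%, and 10.8% and 11.3%. The lists of Fast (-Tetra) disagreed with each other at both genes, list 1 being the lower. Coverage of the larger Ptprc window was 2.38% and 1.07%, 1.76% and 2.49%, 0% and 0.430%, and 1.40% and 1.96%. Ccl5 had 9.31% and 4.66%, 5.87% and 6.26%, 0% and 2.53%, and 1.70% and 5.40%. Fed (+Tetra) list 1 was the lowest of the 8 lists, or tied with it, for 8 of the 9 members and for 59.3% of all genes.

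Itgae and Cd79a followed another order than Gzma, Gzmb and Cd8a, for which Fed (-Tetra) list 1 was the highest. Itgae coverage was 2.63% and 2.74% in Fed (-Tetra), 4.25% and 6.17% in Fast (-Tetra), 1.23% and 2.80% in Fed (+Tetra), and 3.09% and 3.90% in Fast (+Tetra). Cd79a coverage was 12.8% and 13.4%, 14.8% and 14.1%, 8.80% and 11.4%, and 11.8% and 10.4%. The highest list was one of Fast (-Tetra) for each gene, as it also was for Ptprc, whose window holds no other protein-coding gene.

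**Figure D3:**
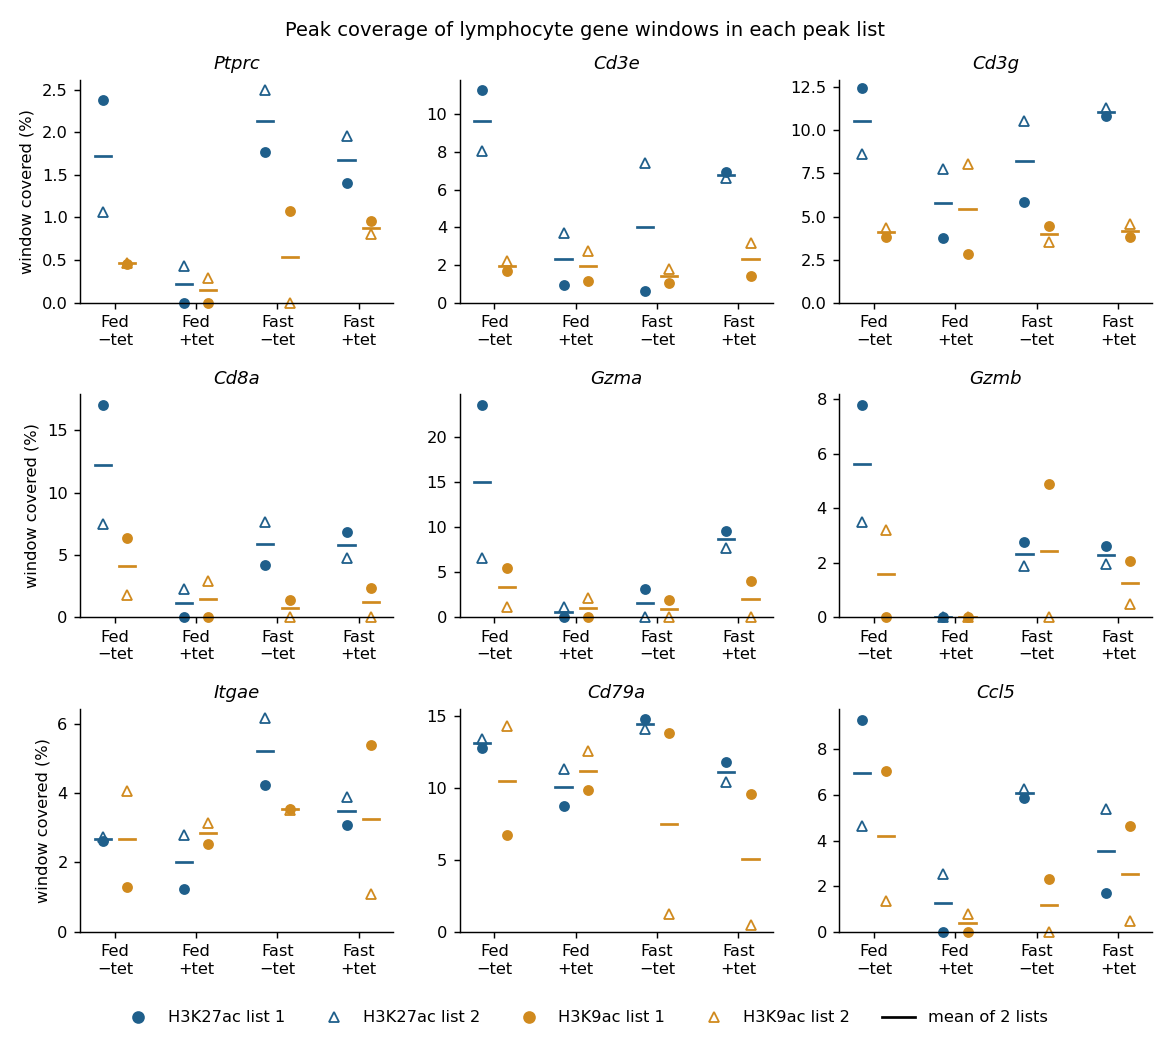
Window coverage (percent, linear axes that start at 0 and differ between panels) of each of the 9 genes in the 4 groups, with H3K27ac in blue, H3K9ac in orange, filled circles for list 1, open triangles for list 2 and a bar at the mean of both. In H3K27ac both lists of Fed with tetracycline lie below both lists of Fed without it for 8 genes, and lists 1 and 2 of a sample lie far apart for several genes in both marks, as for Gzma in H3K27ac (23.5% and 6.52%).

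With tetracycline, mean H3K27ac coverage was lower at all 9 members (4 lists against 4), with a median difference of -2.84 percentage points against -0.13 over all genes. The share of all genes with a lower mean is not given here, so how unusual 9 of 9 is was not tested. For 1 member, Cd79a, the groups did not overlap (10.6% ± 1.34 with and 13.8% ± 0.858 without tetracycline, SD, n = 4 lists each), where 1.22% of all genes were lower without overlap and 0.142% higher. The Cd79a peaks were those at Rps19 and Arhgef1, and with peaks at other genes left out no member was called. Ccl5 reached the smallest p that 36 arrangements allow in the exact permutation test, 0.056, with 2.41% ± 2.26 against 6.52% ± 1.98 (SD, n = 4 lists each). After Benjamini-Hochberg adjustment over all genes no gene was below an adjusted p of 1, and limma gave adjusted p = 0.988 at the lowest for a member. With list number as a term, the lowest adjusted p of a member in limma was 0.81. With lists paired by number, 3 members (Ptprc, Cd79a and Ccl5) were lower with tetracycline in all 4 pairs, where 8.75% of all genes were.

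Feeding gave no common direction. Mean H3K27ac coverage was higher in Fast lists at 5 members and lower at 4, with a median difference of 0.69 percentage points against 0.26 over all genes. Itgae was the 1 member called, with 4.35% ± 1.31 in Fast and 2.35% ± 0.752 in Fed lists (SD, n = 4 lists each), where 4.73% of all genes were higher in Fast without overlap and 0.21% lower. The exact permutation p was 0.056 and its adjusted value over all genes 0.707. For Itgae limma gave adjusted p = 0.386, and 0.235 with list number as a term. Under each of the 7 other ways of counting peaks, among them narrower windows and leaving out peaks at Haspin and other neighbours, the Itgae groups overlapped. Gzma had 5.08% ± 4.33 in Fast and 7.78% ± 10.9 in Fed lists (SD, n = 4 lists each), a spread far wider than the difference.

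In H3K9ac, no member was called by feeding (2.96% of all genes were higher in Fast without overlap and 0.393% lower) or by tetracycline (0.48% higher and 0.302% lower). In limma, 0 members had an adjusted p below 0.05 for either factor in either mark. Of 18867 genes tested in H3K27ac, 21 were higher and 1 lower in Fast at this cutoff, and 0 differed by tetracycline. In H3K9ac 0 of 21029 differed by either factor. At an unadjusted p below 0.05, limma had 1 member for feeding (Itgae), where 9.78% of all genes tested were, and 3 for tetracycline (Ptprc, Cd79a and Ccl5), where 4.32% were, in H3K27ac. In H3K9ac it had 0 for feeding (5.38%) and 0 for tetracycline (1.85%). With list number as a term, limma had 1 member for feeding (Itgae) at this cutoff in H3K27ac, among 2492 of 18867 genes tested. For tetracycline it then had 2, Cd79a and Ccl5, among 1096. The gap between the 2 lists of a sample averaged 2.68 percentage points over 36 member and sample pairs in H3K27ac and 2.77 in H3K9ac, and was larger on average in H3K27ac for 5 members and in H3K9ac for 4. In H3K9ac, Ccl5 had 7.07% and 1.37% in Fed (-Tetra), and Cd79a 13.8% and 1.21% in Fast (-Tetra).

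The 2 lists of a sample were compared in the same way. In H3K27ac, 1 of the 9 members, Itgae, was lower in list 1 than in list 2 in all 4 samples, and none was higher, where 20.2% of all genes were lower and 0.617% higher. Of the 14 epithelial genes, 12 were lower in list 1 in all 4 samples. In H3K9ac 1 member, Cd3e, was lower in list 1 in all 4 samples, against 7.62% of all genes lower and 0.781% higher, and 8 epithelial genes were. Differences in Gzma went the other way without reaching a call, with mean H3K27ac coverage of 9.04% in list 1 and 3.82% in list 2, and an exact permutation p of 0.25. The difference between gene groups was not tested.

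At 6 of the 9 members the feeding difference in mean H3K27ac coverage had opposite signs with and without tetracycline. The share of all genes with opposite signs is not given here, so this count is a description of the members alone. Fast minus Fed H3K27ac coverage at Gzma was -13.5 percentage points without and 8.06 with tetracycline, and the difference between the states, 21.5, was the highest of all protein-coding genes. At Cd3e the values were -5.63 and 4.44, at Cd8a -6.34 and 4.70, at Gzmb -3.30 and 2.28, at Cd3g -2.36 and 5.30, and at Ccl5 -0.92 and 2.29. Ptprc, Itgae and Cd79a were higher in Fast in both states. At Cd3e, Gzma and Gzmb the Fed and Fast lists did not overlap in either state, in these opposite directions, as for 0.48% of all genes. So did 3 of 15 other cytotoxic, 3 of 13 pan leukocyte and 1 of 14 myeloid genes, and 0 of 15 other T cell receptor genes, with 0 in the remaining lists of other genes. The median difference between states over the 9 members was 5.59 percentage points, against -0.22 over all genes. Exact permutation gave p = 0.056 for Cd3e, Gzma and Gzmb, the smallest its 36 arrangements allow, and 0.11 for Cd3g and Cd8a, and adjusted p = 1 over all genes for every member. It exchanged Fed and Fast labels within each state, so it assumes no feeding difference in either, not an equal one in both. The corresponding median in H3K9ac was 0.66 percentage points, against 0.00231 over all genes.

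**Figure D4:**
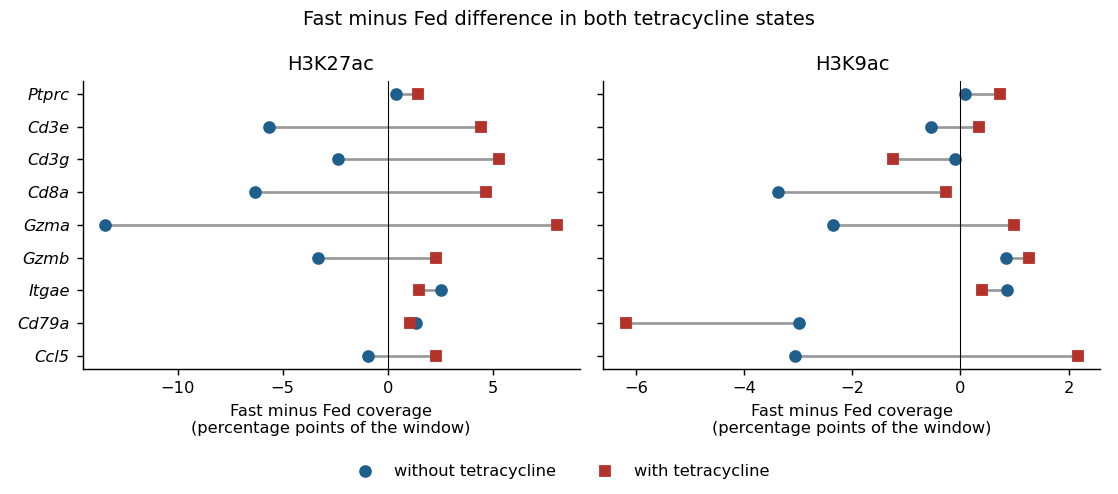
Fast minus Fed window coverage (percentage points) of each gene without tetracycline (blue circles) and with tetracycline (red squares), for both marks, as differences between means of 2 lists. In H3K27ac 6 genes lie left of 0 without and right of 0 with tetracycline, from Gzma (-13.5 and 8.06) to Ccl5 (-0.92 and 2.29). The share of all genes that do so is not given.

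Comparisons of 2 lists with 2, chosen after these values were seen, show where the difference sat. Among Fed H3K27ac lists, 8 of 9 members (all but Itgae) were lower in both lists with than in both lists without tetracycline, where 8.32% of all genes were lower and 4.07% higher. Among Fast lists, 3 members were lower with tetracycline (21.2% of all genes) and 2, Cd3g and Gzma, higher (3.44%). Among lists with tetracycline, 7 members were higher in both Fast than in both Fed lists (14.2% of all genes) and 0 lower (3.97%). Among lists without it, 3 (Cd3e, Gzma and Gzmb) were lower in Fast (3.44%) and 2 (Itgae and Cd79a) higher (25.3%). The Fed (+Tetra) lists enter both the count of 8 and the count of 7. Among peaks at or above the median score of their list, 2 members, Ptprc and Cd3g, were lower with tetracycline among Fed lists (6.08% of all genes) and 3, Cd3e, Cd3g and Ccl5, higher in Fast among lists with tetracycline (11.1%). With each list cut to the peak number of the shortest, by score, the counts were 7 (8.88%) and 5 (12.8%). H3K9ac gave 2 members lower with tetracycline among Fed lists (5.76% of all genes) and 2 higher in Fast among lists with tetracycline (22.6%).

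Other genes of the same cell types were read from lists that hold none of the 9 members. Among Fed H3K27ac lists, 9 of 15 cytotoxic and natural killer genes, 8 of 13 pan leukocyte genes and 7 of 15 T cell receptor genes were lower with tetracycline without overlap. So were 4 of 13 homing and residence genes, 3 of 14 myeloid, 2 of 10 muscle and nerve and 1 of 15 B and plasma cell genes, and 0 of 12 stroma and vessel and 0 of 14 epithelial genes. Cd3d, Cd8b1 and Gzmc stand near members and share part of their windows. The genes of highest mean coverage in each list, apart from Cd3d, had the means below, which include peaks at neighbouring genes. Own H3K27ac peaks were in 8 peak lists for Cd247 and Vav1, 7 for Lck, 6 for Itgb2 and 5 for Fasl and Itgb7. They were in 4 for Nkg7 and Coro1a, 2 for Klrb1c and 1 for Cd52 and Itgal. Among cytotoxic genes, Nkg7, a granule protein gene, had 17.6% in Fed (-Tetra), 10.5% in Fed (+Tetra) and 17.8% in Fast (+Tetra). Klrb1c, which encodes the NK1.1 receptor, had 13.4%, 7.35% and 12.5% in the same order, and Fasl, the death ligand, 12.8%, 4.69% and 12.3%. These 3 genes were lowest in Fed (+Tetra). Among T cell receptor genes, Lck, the kinase that starts receptor signalling, had 6.78%, 2.68% and 5.39%, whereas Cd247, the zeta chain of the receptor complex, went the other way among Fed lists, with 3.31%, 4.33% and 5.66%. Among pan leukocyte genes, Cd52, a surface protein gene, had 9.89%, 3.08% and 4.69%. Coro1a, an actin regulator, had 7.86%, 5.85% and 3.83%, and Vav1, a signalling protein, 8.30%, 6.53% and 4.76%, both lower still in Fast (+Tetra). Among homing genes, Itgb2 had 13.9%, 11.6% and 13.7% and Itgb7 9.30%, 5.63% and 8.25%, and Itgal, the integrin alpha chain of LFA-1, 6.30%, 7.23% and 5.42%. Over all 8 peak lists, coverage was lower with tetracycline without overlap for 2 of 13 pan leukocyte genes (Cd52 and Arhgdib) and 1 of 15 cytotoxic genes (Tbx21). It was for 0 in the remaining lists of other genes, and for 1.22% of all genes.

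**Figure D5:**
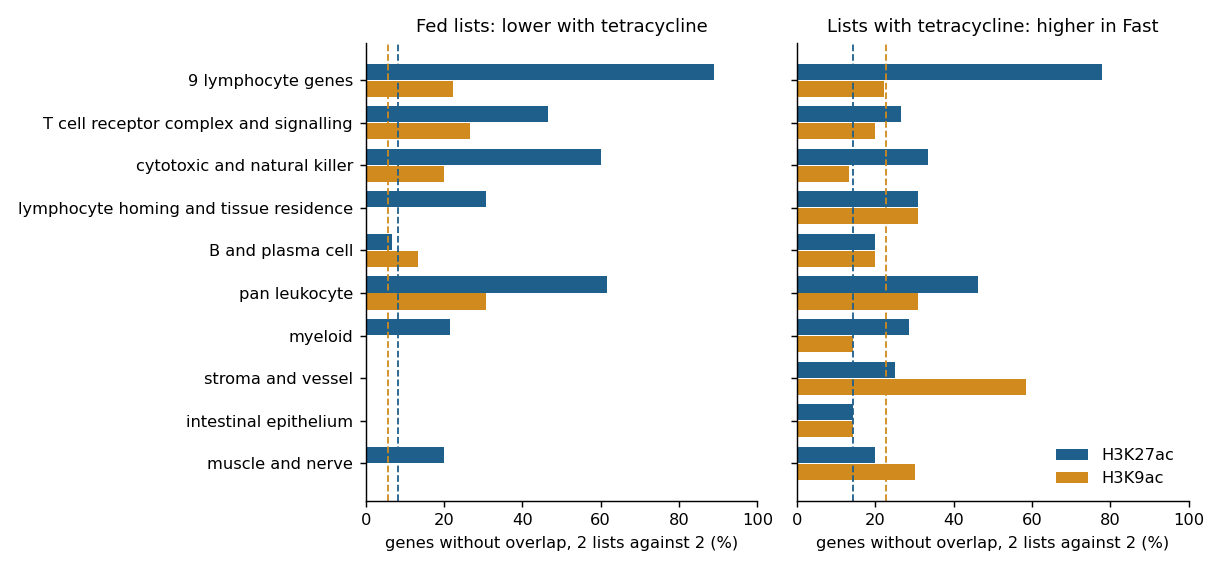
Percent of the genes of each list whose coverage in 2 peak lists did not overlap that in 2 others, for H3K27ac (blue) and H3K9ac (orange): left, lower with tetracycline among Fed lists, and right, higher in Fast among lists with tetracycline. Dashed lines are the same percentages over all protein-coding genes, 8.32% and 5.76% at left and 14.2% and 22.6% at right, and no epithelial or stromal gene was lower at left.

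Of 15 other B and plasma cell genes, 2 were called by feeding in H3K27ac, both higher in Fast, against 4.73% of all genes. So was 1 of 10 muscle and nerve genes, with 0 in the remaining lists of other genes. By tetracycline 0 of the 15 were called in H3K27ac, against 1.22% of all genes lower and 0.142% higher. In H3K9ac 0 were called by either factor. Cd22, a B cell inhibitory receptor gene, and Fcer2a, a low-affinity IgE receptor gene, were higher in Fast than in Fed H3K27ac lists without overlap, with group means of 0% and 0% in Fed and of 1.46% and 2.06% in Fast at Cd22. An own peak was present in 1 list at Cd22 and in 0 at Fcer2a. Ms4a1, which encodes CD20, had 8.10% and 8.98% in Fed (-Tetra) and Fed (+Tetra) and 9.04% and 7.97% in Fast, with an own peak in 1 list. Cxcr5, the gene of highest mean coverage among the 15, had 6.05% and 6.07% in Fed and 14.0% and 9.23% in Fast, in the same order. It had an own peak in 8 lists, and its Fed and Fast lists overlapped. Tnfrsf17 had 8.30% and 6.85% in Fed and 6.65% and 6.28% in Fast, with an own peak in 0 lists.

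Across the 8 H3K27ac lists, coverage of pairs of members, leaving out Cd3e with Cd3g, had a median Pearson r of 0.63 over 35 pairs (range -0.21 to 0.95), and of 0.10 in H3K9ac (-0.39 to 0.96). The lists share a mark and differ in peak number, so these are descriptions with no test. Over the 16 lists, with values centred within each mark, the gene on another chromosome most like Ptprc was Klrb1, a lectin-like receptor of natural killer and T cells (r = 0.88), followed by Stn1 and Rin3 (both 0.85). The genes most like Cd3e were Osgin1 (0.92), Prss58 (0.86) and Ubxn11 (0.85), and those most like Cd79a were Polr2h, Gm32687 and Gm51793 (all 0.90).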

How the data were processed

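CUT&Tag, in which an antibody against a histone mark brings a transposase to chromatin, was run on H3K27ac and H3K9ac in 8 samples (4 groups for each mark), with 2 peak lists per sample. Per the peak names in the deposited files, which have no header, the authors called peaks with MACS in each list separately and deposited for each peak a score with no stated unit, used here only for ranks and cutoffs inside a list. Per the submitters' processing notes, FastQC, Bowtie and SAMtools were used and the build was mm10; versions and the peak cutoff are not given in the sources used here. List names describe the data as downsampled, and depth is unknown, so depth-based intervals are left out.

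Peaks on chromosomes 1 to 19, X and Y were joined to 21887 RefSeq protein-coding genes of GRCm38.p6 (at least 1 bp of overlap). Start sites and promoter sequences are from RefSeq; 7 members matched, and Itgae and Ccl5 did not. A gene was called when the 4 lists of one state did not overlap the 4 of the other, or, for list number, when all 4 samples went the same way. Exact permutation tests were two-sided, exchanged labels within the other factor (36 arrangements, smallest p 0.056; 0.12 for list number) and were adjusted over all genes by the Benjamini-Hochberg method. Coverage was also fitted in limma 3.58.1 (R 4.3.3) with feeding and tetracycline as terms, on genes with any coverage. List numbers stand only in the names of the lists. Deviations of same-numbered H3K27ac lists correlated over genes in all 6 pairs of groups (r from 0.25 to 0.69), so the numbers were taken to pair them. The main calls by feeding and tetracycline, their exact tests and the main limma fits did not use this pairing. It entered as an alternative, by pairs of the same number or with list number as a term in limma. In H3K9ac r was -0.01 to 0.49, and the numbers were not taken to pair the lists.

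Named genes were all 9 members; from each list of other genes, up to 3 with the highest mean H3K27ac coverage and any whose Fed and Fast lists did not overlap; the 3 genes most like Ptprc, Cd3e and Cd79a; and per member the region in most lists. Other genes are named because a count of them is small. Members and lists were chosen with earlier results of these data known. Alternatives were windows of 5 kb and 1 kb, equal numbers of top-scoring peaks, peaks from the median score up, peaks of at least 500 bp, peaks at other genes left out (own peaks: 2 kb to other genes), peak number, lists left out and pairing by list number. Scripts ran in Python 3.11.15 (matplotlib 3.10.9 for plots; pandas 2.3.3, scipy 1.17.1 and numpy 2.4.6 for values).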

Additional observations from a re-analysis of the deposited data

Results flagged for a closer look

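At 3 members both Fed lists lay above both Fast H3K27ac lists without tetracycline and below both with it, a pattern that 0.48% of all genes showed. The Fast minus Fed difference at Gzma was -13.5 percentage points of window coverage without and 8.06 with tetracycline, which differ by 21.5. At Cd3e it was -5.63 and 4.44, which differ by 10.1, and at Gzmb -3.30 and 2.28, which differ by 5.59. The exact permutation test of each difference gave p = 0.056, the smallest it allows, and adjusted p = 1 over all genes. It exchanged Fed and Fast labels within each state, so it assumes no feeding difference in either state. Among peaks at or above the median score of their list, 0 members showed the pattern.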

How the results depend on the processing

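The Itgae call (1 member higher in Fast, H3K27ac) gave 0 with windows of 5 kb or 1 kb, equal numbers of top-scoring peaks, peaks from the median score up (upper scores below), peaks of at least 500 bp, peaks near other genes left out, peak number, limma, and limma with the replicate block. The Cd79a call (1 lower with tetracycline) gave 0 with top-scoring peaks, upper scores, peaks near other genes left out, peak number and limma with or without the block, and 3 with the replicate block of same-numbered pairs; the block changed no other call. The H3K27ac list number call gave 0 with upper scores, with peaks near other genes left out and by peak number, where the Itgae difference became 0.75 peaks. The H3K9ac one gave 0 lower and 1 higher with top-scoring peaks and with upper scores, where the Cd3e difference became 0.078 and 0.13.

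The Fast minus Fed difference in the median member coverage per list differed between tetracycline states by 8.55 percentage points for H3K27ac and became 12.4 with 5 kb windows, 4.72 with upper scores and 3.66 with peaks near other genes left out; for H3K9ac it was 2.61 and became 6.49, 0.049 and 0.79. Own peaks were found in 58.3% of member and list pairs for H3K27ac, 33.3% with top-scoring peaks and 18.1% with upper scores, and for H3K9ac in 50%, then 15.3%, 18.1% and, at 500 bp, 30.6%; without the lists of 1 number they were 58.3% and 50%.

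Among Fed H3K27ac lists, the 8 members lower with tetracycline became 5 with 1 kb windows and 2 with upper scores. The 7 higher in Fast with tetracycline became 3 and the 3 lower in Fast without it 0, both with upper scores, and the 3 with both patterns 0, and 1 at 500 bp. For H3K9ac, the 2 lower with tetracycline became 1 (1 kb), 0 (upper scores and peak number) and 5 (500 bp), and the 2 higher in Fast 1 (5 kb, top-scoring, upper scores, 500 bp) and 0 (1 kb).

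Without the lists of number 1 or 2, H3K27ac counts ranged over 1 to 4 (feeding, higher), 3 to 4 (tetracycline, lower), 8 to 9 (Fed, lower with tetracycline), 8 to 9 (higher in Fast with tetracycline), 3 to 7 (lower in Fast without it) and 3 to 7 (both patterns), with 0 elsewhere, and the median difference over 3.14 to 14.0. H3K9ac counts ranged over 0 to 4 (feeding, either direction), 0 to 2 and 0 to 1 (tetracycline, higher and lower), 5 to 6 and 3 to 8 (Fed and Fast as above), and the difference over -0.049 to 5.26. With single lists left out, an alternative added after the data were seen, the tetracycline count was 3 without Fast (-Tetra) list 1 and 2 without Fast (-Tetra) list 2, Fed (-Tetra) list 2 or Fast (+Tetra) list 2; the feeding count was 2 without Fed (-Tetra) list 1. The lower-in-Fast count was 6 without Fed (-Tetra) list 2 and 5 without Fast (-Tetra) list 2, and that of both patterns 5 without either. Leaving out lists can only keep or raise a count of members without overlap, so these counts cannot show that a result holds. Without the lists of 1 number, comparisons of 2 lists with 2 became 1 against 1, where any difference counts as no overlap. The share of all genes is not given for these counts. Without 1 list the 8 and 7 members became 8 to 9 and 7 to 9, and the H3K27ac difference 6.16 to 10.9. For H3K9ac these gave 2 to 6, 2 to 5 and 0.95 to 4.26, and the feeding count 0 to 1. The causes were not tested. Depth is unknown, and 63 of the 80 own H3K27ac peaks scored below the median of their list.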

Other observations

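Among the 15 cytotoxic genes, 6 were lower in both Fast than in both Fed H3K27ac lists without tetracycline, as were 4 of 13 pan leukocyte, 1 of 15 T cell receptor, 1 of 13 homing, 1 of 14 myeloid and 1 of 14 epithelial genes and 0 of the B and plasma cell, stroma and vessel, and muscle and nerve genes, against 3.44% of all genes. Among lists with tetracycline, 6 of 13 pan leukocyte, 5 of 15 cytotoxic and 4 of 15 T cell receptor genes were higher in both Fast lists, against 14.2% of all genes. So were 4 of 13 homing, 4 of 14 myeloid, 3 of 15 B and plasma cell, 3 of 12 stroma and vessel, 2 of 10 muscle and nerve and 2 of 14 epithelial genes. These counts were chosen after the values were seen and have no test.

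Of the myeloid genes, Tyrobp, an adaptor of natural killer and myeloid receptors, had mean H3K27ac coverage of 17.0% in Fed (-Tetra), 10.8% in Fast (-Tetra), 5.11% in Fed (+Tetra) and 8.82% in Fast (+Tetra). Cd68, a macrophage lysosomal gene, had 19.5%, 21.2%, 16.6% and 21.1% in the same order, with an own peak in 0 lists. Lyve1, a lymphatic vessel gene, had 14.97% and 15.1% in Fed and 22.0% and 22.0% in Fast lists, without and with tetracycline, and an own peak in all 8.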
